A study of Mus musculus with 12 samples.

Results

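The response of siPdcd5 cells to TGF-β1 was described across all expressed genes. The members were the 6 libraries labelled siPdcd5, of which 3 came from cells given TGF-β1 (siPdcd5_TGFb1) and 3 from cells without it (siPdcd5), out of 12 libraries in the series. C22 is a cloned mouse club cell line, made conditionally immortal with the H-2Kb-tsA58 transgene, a temperature-sensitive large T antigen under an interferon-inducible promoter. The line grows at a lower temperature with interferon-γ and differentiates at a higher one without it. Both groups were differentiated cells transfected with siRNA against Pdcd5 and starved of serum for 2 h, and the treated group then received 20 ng/ml TGF-β1 for 24 h. The other 6 libraries, NC and NC_TGFb1, came from control siRNA cells handled in the same way. They entered the same model, so the gene filter, the scaling and the estimate of spread rest on them too. Their own response is used here only to show where the siPdcd5 response differed. All cells are therefore 1 clone carrying the same transgene, and bulk RNA cannot tell a change in the number of cells of a type from a change in RNA per cell.

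TGF-β1 binds a pair of serine/threonine kinase receptors that phosphorylate Smad2 and Smad3, which enter the nucleus with Smad4 and switch genes on or off. In airway epithelium the pathway is known for stopping division, loosening the epithelial phenotype and driving the secretion of extracellular matrix, and it is a central signal of lung fibrosis. PDCD5 is a small protein that binds the CCT chaperonin, a folding machine of the cytosol, and was named for its rise in dying cells. The question of the comparison was which functions TGF-β1 moved while Pdcd5 was low.

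The 6 libraries held 12809857 to 17714828 counts over 23282 gene symbols, and 12425 genes with enough counts were tested. Levels are given as CPM, in which each library's counts are scaled by its total after TMM correction, so a gene can be compared between libraries but levels of different genes are not per length. Pdcd5 stood at 21.2, 20 and 22.1 CPM in the 3 siPdcd5 libraries and at 24.1, 21.8 and 26.3 CPM in the 3 siPdcd5_TGFb1 libraries, while the 6 control siRNA libraries ran from 65.1 to 73.5 CPM. The targeted gene was thus lower in each library labelled siPdcd5, and the treated and untreated values overlapped (log2 fold change 0.19 ± 0.10, edgeR adjusted p = 0.22). The first siPdcd5 library stood somewhat apart from its replicates: the chi-square per degree of freedom over genes was 32.7 and 25.4 against replicates 2 and 3, which differed from each other by 9.72, and by 5.76 to 6.31 between treated libraries. Nothing in the labels says that replicates were separate cultures, so the p-values measure only the spread between these libraries.

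The labelled cell type was checked against club cell markers. Scgb1a1, Scgb3a2 and Cyp2f2, which define the mature club cell, had no count in the 6 libraries, and neither did Gabrp or Epcam, so that 5 of 14 markers were at 0. Nkx2-1, Scgb3a1, Cyp4b1 and Aldh1a7 had 2, 3, 4 and 29 counts in the 6 libraries together and did not pass the expression filter. The 5 that passed it were the simple keratins Krt8 and Krt18, the retinaldehyde-oxidising enzyme Aldh1a1, the transcription factor Foxa2 and a trace of Cdh1. Collagen transcripts were abundant already without TGF-β1, Col1a1 at 1959 CPM on average, but among the 9 fibroblast markers Lum and Tcf21 had no count and Thy1 and Pdgfra lay at or under 5.54 CPM. Dcn was at 144 CPM without and 41.5 CPM with TGF-β1 on average, Pdgfrb at 19.7 and 27.3 CPM, Col3a1 at 729 and 1144 CPM and Col1a2 at 12 and 39.5 CPM. The summed fibroblast list ran from 2562 to 3137 CPM without and from 5613 to 5972 CPM with TGF-β1, most of it Col1a1 and Col3a1, and its part in the matrix results was not tested. Immune and endothelial markers summed to between 9.98 and 17.1 CPM and between 1.29 and 2.48 CPM over the 6 libraries. Of the alveolar type 1 markers, 5 of 6 passed the expression filter, with 1 called higher (Emp2, 139.7 against 189.6 CPM on average) and 1 lower (Aqp5, 51.1 against 34.9 CPM), and the list summed to 441 to 611 CPM without and 557 to 590.2 CPM with TGF-β1. Alveolar type 2 markers summed to between 21.2 and 22.5 CPM, ciliated cell markers to between 7.19 and 10.9 CPM and goblet cell markers to between 0.738 and 2.93 CPM.

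A gene is called here when its p from the quasi-likelihood test of edgeR, adjusted by Benjamini-Hochberg over the 12425 genes, was under 0.05. TGF-β1 changed 2002 genes by this rule, 16.1% of those tested, with 1056 higher (8.5%) and 946 lower (7.61%). The 3 treated libraries lay wholly above or wholly below the 3 untreated ones for 1996 of them, against 36.1% of all tested genes. Large changes were few: 274 called genes were at least 2-fold higher and 264 at least 2-fold lower, 73 and 46 at least 4-fold, and 821 moved by less than 1.5-fold. The median absolute log2 fold change was 0.67 among called genes and 0.22 over all tested genes, whose median was -0.03. Without the siPdcd5 library that stood apart 1737 genes were called, 1542 of them shared, and without replicate 1 of siPdcd5_TGFb1 1371 were called, with 625 in place of 946 lower.

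**Figure D1:**
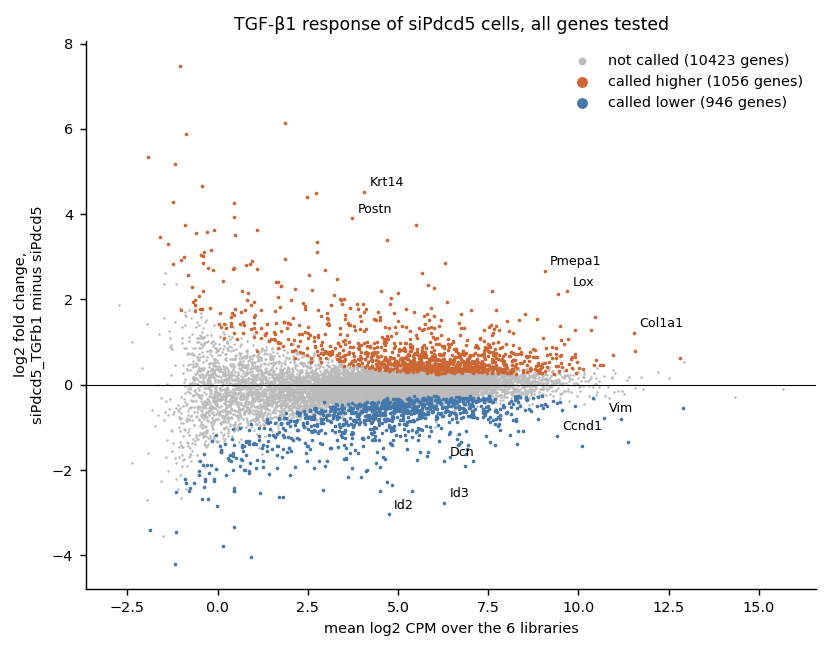
Log2 fold change (siPdcd5_TGFb1 minus siPdcd5) against mean log2 CPM over the 6 libraries for each of the 12425 genes tested; orange and blue points are called higher (1056) and lower (946), grey points are not called. The called genes spread over the whole range of levels, and Krt14 (4.52) and Id2 (-3.03) lie at the edges among the better expressed ones.

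Feedback inhibitors of the pathway were among the genes that rose. Of 21 tested SMADs and feedback genes 6 were higher and 3 lower (median 0.08). Pmepa1, a membrane protein that holds Smad2 and Smad3 away from the receptor, stood at 181, 233 and 223 CPM without and at 1373, 1349 and 1337 CPM with TGF-β1 (log2 fold change 2.67 ± 0.12, edgeR adjusted p = 6.1e-09). Ldlrad4, of the same protein family, went from 8.41, 7.33 and 7.98 to 26, 24.5 and 31.3 CPM (1.79 ± 0.12), so that both members were several-fold higher in each treated library. Skil, a corepressor of SMADs, rose from 24.3 to 79.1 CPM on average and Smad7, the inhibitory SMAD, from 10.7 to 25.6 CPM. Nedd4l, a ubiquitin ligase for activated SMADs, fell by 0.62 on the log2 scale. Smad6, the inhibitory SMAD of the BMP arm, fell by 0.56, a call lost without replicate 2 of siPdcd5_TGFb1 (edgeR adjusted p = 0.0553). Smad9, a BMP-activated SMAD, stood at 1.6 against 0.545 CPM on average, and its call was lost in 3 of the 13 alternatives that gave it a value, each leaving out 1 library (edgeR adjusted p = 0.0518 to 0.0899).

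Neither signalling receptor changed detectably, while single ligands did. Of 12 tested TGF-β ligands, receptors and latency proteins 3 were higher and 2 lower. Tgfbr1 and Tgfbr2, which encode the receptor kinases, had log2 fold changes of 0.11 ± 0.19 and 0.24 ± 0.15 (edgeR adjusted p = 0.75 and 0.303). Tgfb3, a ligand, stood at 56.2, 47.9 and 49.3 CPM without and 25.2, 22.9 and 26.6 CPM with TGF-β1 and fell by 1.04 on the log2 scale, while Tgfb2 was not called (0.13 ± 0.10). Ltbp3, which anchors latent TGF-β in the matrix, rose by 0.39. The calls of its relatives Ltbp1 (0.60 ± 0.18) and Ltbp4 (-0.41 ± 0.13) were less stable: that of Ltbp1 was lost in 6 of 14 alternatives, 5 of which leave out 1 library (adjusted p of 0.00125 to 0.125 over the edgeR, limma and DESeq2 alternatives), and that of Ltbp4 in 11 of 14 (0.0346 to 0.173). Only Tgfb3 was lower without replicate 2 or 3 of siPdcd5 or any 1 treated library. Ltbp2, a microfibril protein, had 1, 0 and 1 counts without and 23, 15 and 4 counts with TGF-β1, near the floor of detection. Among 19 tested BMP and activin ligands, receptors and antagonists 6 were higher and 1 lower. Inhba, the activin A subunit that signals through the same SMADs, stood at 22.2, 33.6 and 31.9 CPM against 129.6, 141 and 150.3 CPM (edgeR adjusted p = 1.06e-07), and Fstl1, a secreted follistatin-like protein, went from 335 to 1463 CPM (2.13 ± 0.10). Bmp4 went the other way, from 269, 377 and 347 to 137, 169 and 167 CPM (-1.07 ± 0.15).

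Most tested genes that BMP signalling is known to switch on fell. Of 10 tested BMP-SMAD targets 6 were lower and 1 higher, with a median log2 fold change of -1.18. Over the 14 alternatives 5 or 6 were lower, and the median ran from -1.53 to -0.85. Id2 and Id3, inhibitors of bHLH transcription factors, were among the largest falls of the data set: Id2 stood at 79.3, 68 and 82.2 CPM without and at 10.6, 10.3 and 7.13 CPM with TGF-β1 (log2 fold change -3.03 ± 0.17, edgeR adjusted p = 2.42e-08). Id3 stood at 264, 172 and 181 CPM against 33.5, 25.8 and 30.9 CPM (-2.77 ± 0.21), and Id1 at 81, 89.5 and 84.2 against 25.3, 26.8 and 23.4 CPM (-1.75 ± 0.12). The highest treated library of each Id gene lay far under its lowest untreated one. Atoh8, a bHLH factor, fell in the same way, from 54.2 to 9.66 CPM (-2.49 ± 0.20). The member that was higher, Smad7, is a target of both arms, and Gata3, Hes1 and Bambi were not called. Because the Id family heads the genes that fell, the 250 bases before the RefSeq start of Id2 are shown as an example (GRCm38.p6, chr12:25096093-25096342, minus strand), with the capitals marking GGCGCC, a SMAD-binding motif, the only match there to the 6 motifs searched.

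Id2: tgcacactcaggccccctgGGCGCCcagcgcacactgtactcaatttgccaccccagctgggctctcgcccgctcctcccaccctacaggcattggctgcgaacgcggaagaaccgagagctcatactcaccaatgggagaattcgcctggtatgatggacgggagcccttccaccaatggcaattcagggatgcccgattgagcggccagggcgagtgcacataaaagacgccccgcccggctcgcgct

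The extremes of the response are the 12 largest rises and the 12 largest falls. They were taken among called genes whose mean log2 CPM was 3 or more and whose treated and untreated libraries did not overlap, and 11 of each are described. Krt14, a keratin of basal cells, led them: it stood at 1.77, 4.25 and 4.51 CPM without and at 84.2, 88 and 75.1 CPM with TGF-β1 (log2 fold change 4.52 ± 0.22, edgeR adjusted p = 6.72e-09). The other defining basal cell markers did not appear with it, since Krt5 had 4 and Trp63 2 counts in the 6 libraries together, and the summed list of 5 markers went from 3.4 to 4.96 CPM without to 75.2 to 88.5 CPM with TGF-β1, nearly all of it Krt14. Lamb3, a chain of the epithelial laminin-332, went from 7.9, 8.44 and 7.34 to 86, 85.3 and 76.7 CPM (3.39 ± 0.12). Of 10 tested genes for basal keratins, laminin-332 and hemidesmosomes 4 were higher and none lower, and the integrin chains Itga6 and Itgb4, which hold that laminin, were not called (0.28 ± 0.15 and 0.38 ± 0.43). As the largest rise, the 250 bases before the RefSeq start of Krt14 are shown (GRCm38.p6, chr11:100206031-100206280, minus strand), with capitals marking GGAATG, a TEAD motif, and CAGACA, a SMAD-binding motif read on the other strand.

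Krt14: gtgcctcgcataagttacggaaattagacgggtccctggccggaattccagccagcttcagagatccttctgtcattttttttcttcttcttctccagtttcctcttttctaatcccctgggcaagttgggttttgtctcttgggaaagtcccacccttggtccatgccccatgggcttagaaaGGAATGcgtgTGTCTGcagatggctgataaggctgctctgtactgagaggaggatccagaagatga

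Tnnt2, the cardiac troponin T, stood at 25.2, 32.1 and 30.8 CPM without and 208, 229 and 208 CPM with TGF-β1 (2.87 ± 0.14). Ccl2, a chemokine for monocytes, stood at 28.5, 25.3 and 22.9 against 137, 97.4 and 155 CPM (2.35 ± 0.23), and Trabd2b, an inhibitor of Wnt ligands, at 3.32, 4.69 and 4.44 against 25.1, 21.8 and 23.3 CPM (2.48 ± 0.23). Ctgf varied among the treated libraries, at 141, 68 and 181 CPM against 23, 20.5 and 20.1 CPM without TGF-β1 (log2 fold change 2.62 ± 0.39). Its lowest treated value was above each untreated one, which the ranking required. Annotated genes lie on the opposite strand of Ctgf, Ccl2, Inhba and Lamb3, and the counting is not stated to use strand, so their reads cannot be told apart. This limit also holds for many genes named elsewhere, among them Tgfb3, Bmp4, Atf5, Timp1, Timp3, Has2, Igf1, Cxcl10, Slc7a11 and Junb.

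**Figure D2:**
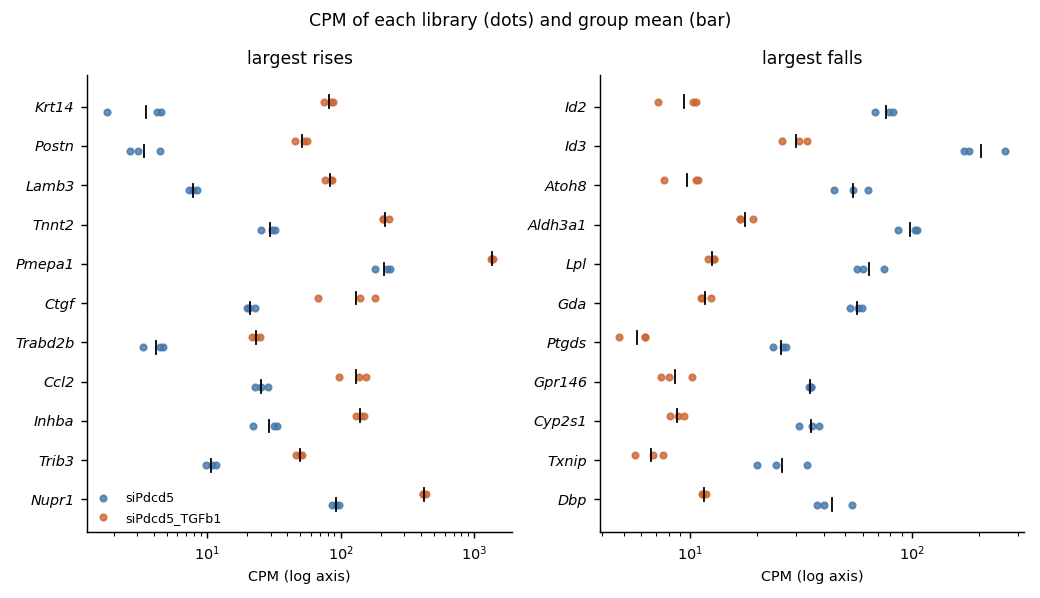
CPM on a log axis in each of the 3 siPdcd5 (blue) and 3 siPdcd5_TGFb1 (orange) libraries for 11 of the 12 largest rises (left) and 11 of the 12 largest falls (right), with bars at the group means. The ranking took only genes without overlap between groups. Krt14 goes from 3.51 to 82.4 CPM on average while Id2 goes from 76.5 to 9.36 CPM.

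Several enzymes of aldehyde, lipid and prostaglandin metabolism were at the other extreme. Aldh3a1, which oxidises aldehydes in exposed epithelia, stood at 86.2, 104 and 106 CPM without and 19.2, 16.8 and 16.8 CPM with TGF-β1 (log2 fold change -2.48 ± 0.12, edgeR adjusted p = 8.21e-09). Lpl, lipoprotein lipase, went from 64.1 to 12.6 CPM (-2.35 ± 0.14), Gda, guanine deaminase, from 56.5 to 11.6 CPM (-2.28 ± 0.11) and Ptgds, a prostaglandin D synthase, from 25.6 to 5.75 CPM (-2.16 ± 0.28). The receptor gene Gpr146 fell by 2.02 on the log2 scale and the cytochrome P450 Cyp2s1 by 2.00. Txnip, a glucose-sensitive inhibitor of thioredoxin, stood at 33.7, 24.5 and 20 against 7.52, 5.63 and 6.79 CPM, and Dbp, a circadian output factor, at 53.8, 37.4 and 40.2 against 11.3, 11.7 and 11.4 CPM. Each of these genes had its 3 treated values close together, and the ranking required them to lie under the untreated ones. The same limit of strand holds for Cyp2s1, Txnip, Gpr146 and Dbp.

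The rest of the response was read by function, over 53 gene lists with 1414 distinct tested genes. Lists are described by their counts and medians beside the background of 8.5% called higher and 7.61% lower and the median of -0.03, without a test of a list.

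**Figure D3:**
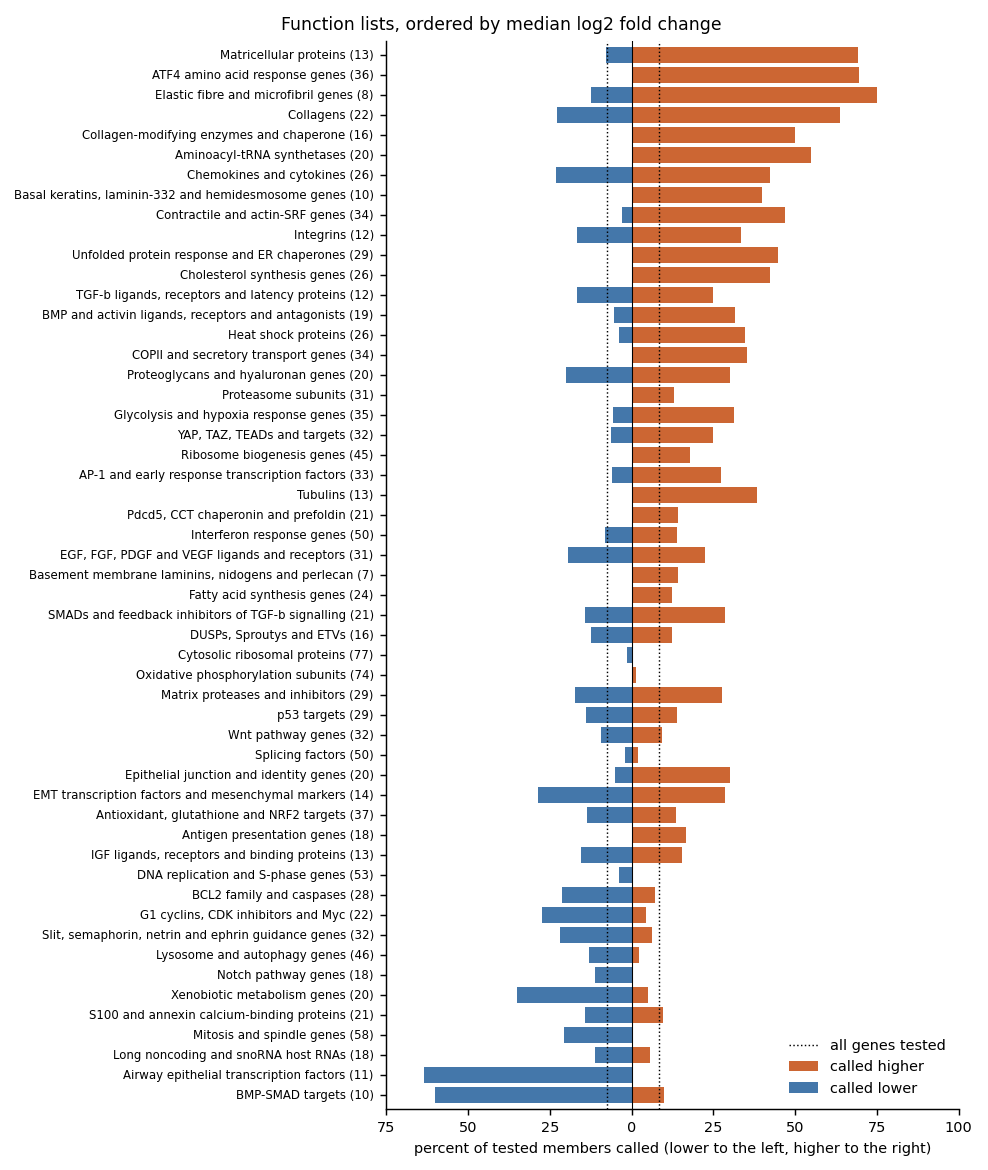
Percent of tested members called higher (orange, right) and lower (blue, left) in each of 53 function lists, ordered by median log2 fold change, with the number of tested members in parentheses and dotted lines at the shares over all genes (8.5% and 7.61%). Matricellular, ATF4 and matrix lists stand at the top, BMP-SMAD targets and airway transcription factors at the bottom.

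Extracellular matrix genes rose in several structural classes. Of 22 tested collagens 14 were higher and 5 lower (median 0.65). Col1a1, a chain of the fibrillar type I collagen, stood at 1695, 2146 and 2035 CPM without and 4629, 4446 and 4595 CPM with TGF-β1 (log2 fold change 1.22 ± 0.10, edgeR adjusted p = 8.72e-07). Its partner chain Col1a2 lay at 15.1, 11.3 and 9.79 against 38.4, 37 and 43 CPM (1.72 ± 0.19), far below Col1a1 in both groups. These counts come from the 3′ end of the transcript, so the difference in level between the chains is of 3′ reads and not per length. Col5a3, of a collagen that regulates fibril width, went from 9.2 to 29.9 CPM and Col3a1 from 729 to 1144 CPM. Col11a1 had 0, 0 and 1 counts without and 21, 22 and 33 counts with TGF-β1, so each treated library held it and the untreated ones hardly any. Not all collagens went up: Col4a6, a basement membrane chain, fell by 1.07, the beaded-filament chain Col6a1 by 0.76 and Col8a1, a short-chain collagen, by 0.72 on the log2 scale.

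Some enzymes that finish collagen rose. Of 16 tested members 8 were higher and none lower (median 0.55). Lox, which cross-links collagen and elastin, stood at 307, 448 and 405 CPM without and 1849, 1786 and 1668 CPM with TGF-β1 (log2 fold change 2.19 ± 0.14, edgeR adjusted p = 1.14e-07), and Plod2, a lysyl hydroxylase of collagen, went from 115 to 292 CPM (1.35 ± 0.10). Loxl2 and Loxl3 were not called (0.34 ± 0.11 and -0.03 ± 0.12). Of 8 tested elastic fibre genes 6 were higher and 1 lower (median 0.70): Fbn1, the core of microfibrils, went from 6.42, 8.66 and 8.24 to 21.1, 21.7 and 19.3 CPM (1.41 ± 0.14), and Efemp1 fell from 279 to 160.2 CPM. Of 13 tested matricellular genes, which modulate cell contacts rather than build fibres, 9 were higher and 1 lower (median 0.98). Postn, periostin, stood at 3.03, 4.47 and 2.64 CPM without and 55.6, 45.4 and 53.2 CPM with TGF-β1 (3.91 ± 0.18). Wisp2 stood at 2.29, 4.19 and 2.7 against 21.4, 18.7 and 20.2 CPM (2.69 ± 0.19), Igfbp7 at 232, 202 and 183 against 684, 574 and 703 CPM (1.67 ± 0.16), and Spp1, osteopontin, was the member that fell, from 128 to 59.8 CPM. Of 7 tested basement membrane laminins, nidogens and perlecan 1 was higher and none lower.

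Proteoglycans and proteases were split. Of 20 tested proteoglycan and hyaluronan genes 6 were higher and 4 lower. Dcn, decorin, which binds TGF-β and collagen, stood at 137, 162 and 134 CPM without and 42.1, 40.1 and 42.2 CPM with TGF-β1 (log2 fold change -1.80 ± 0.10, edgeR adjusted p = 1.92e-08). Gpc1, a glypican, went the other way from 63.5, 71.9 and 77 to 225, 269 and 225 CPM (1.76 ± 0.15), as did the large proteoglycan Vcan (1.31 ± 0.11) and Has2, a hyaluronan synthase (1.75 ± 0.18). Of 29 tested proteases and inhibitors 8 were higher and 5 lower. Timp3, a matrix-bound metalloproteinase inhibitor, stood at 729.5, 902 and 821 against 2619.6, 2439 and 2360.0 CPM (1.60 ± 0.10) and Timp1 went from 119 to 312 CPM (1.39 ± 0.11). The stromelysin Mmp3 fell from 8.07 to 1.84 CPM, Adamts9 by 1.30 and Plat, tissue plasminogen activator, by 1.79 on the log2 scale. Other proteases were higher: Adamts4, an aggrecan-cleaving protease, stood at 1.77, 1.76 and 0.966 CPM without and 7.45, 5.86 and 5.58 CPM with TGF-β1 (2.06 ± 0.32), and Mmp14 (0.93 ± 0.09) and Mmp2 (0.39 ± 0.08) rose less.

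Contractile genes rose in part. Of 34 tested contractile and actin-SRF genes 16 were higher and 1 lower (median 0.34), and none was lower without replicate 1 or 3 of siPdcd5 or replicate 1 or 2 of siPdcd5_TGFb1. Acta2, smooth muscle actin, stood at 295, 241 and 279 CPM without and 803, 776 and 779 CPM with TGF-β1 (log2 fold change 1.53 ± 0.09, edgeR adjusted p = 4.77e-08). Tagln2 went from 176 to 424 CPM (1.27 ± 0.10) and Pdlim7, an actin-linked scaffold, from 144 to 353 CPM (1.29 ± 0.17), whereas Tagln, the smooth muscle member of the transgelin family, was low and not called (0.17 ± 0.26). Of 12 tested integrins 4 were higher and 2 lower. Itgb5 and Itgb3, both partners of Itgav in receptors that bind vitronectin, rose from 114 to 386 and from 15.6 to 40.1 CPM, Itgb1 from 768 to 1211 CPM, and Itgav itself was not called (0.47 ± 0.16, edgeR adjusted p = 0.0666). Of 13 tested tubulins 5 were higher and none lower, Tuba4a at 112, 95.2 and 118 against 177, 187 and 179 CPM.

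The transcription factors and markers of epithelial-mesenchymal transition did not move together. Of 14 tested genes 4 were higher and 4 lower (median -0.03). Snai1 stood at 10.8, 4.58 and 5.09 CPM without and 24.8, 17.6 and 20.9 CPM with TGF-β1 (1.65 ± 0.33) and Zeb1 at 59.6, 60.1 and 59.6 against 96.7, 98.4 and 97.1 CPM (0.70 ± 0.11), both repressors of Cdh1. Snai2 went from 45.5 to 29.3 CPM (-0.64 ± 0.10) and Vim, the intermediate filament of mesenchymal cells, from 2450.2, 2101 and 2006 to 1345, 1174 and 1315 CPM (-0.77 ± 0.14, edgeR adjusted p = 0.00108). Fn1, fibronectin, was higher (0.73 ± 0.10), and the mesenchymal homeobox gene Prrx1 lower (-0.67 ± 0.13). Of 20 tested epithelial junction and identity genes 6 were higher and 1 lower, and none was lower without replicate 2 or 3 of siPdcd5_TGFb1. Krt8 and Krt18, which pair in simple epithelia, rose from 193 to 446 and from 446 to 1156 CPM, and Cdh1, E-cadherin, lay between 2.01 and 2.92 CPM in the 6 libraries with no call. Vim was therefore lower while the simple keratins were higher in each treated library.

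Most tested transcription factors of the airway epithelium fell. Of 11 tested members, Id2 among them, 7 were lower and none higher (median -0.83), and the count ran from 5 to 7 over the alternatives. Foxa2, which drives club and other endodermal programs, stood at 213, 198 and 196 CPM without and 70.5, 76.6 and 66.5 CPM with TGF-β1 (log2 fold change -1.51 ± 0.09, edgeR adjusted p = 4.28e-08). Gata6, a partner of Foxa2 in lung endoderm, stood at 123, 86.1 and 89.7 against 38.4, 29.2 and 33 CPM (-1.57 ± 0.23), and Sox9, a factor of the distal lung tip, at 23.9, 18.7 and 23.1 against 7.99, 6.71 and 7.06 CPM (-1.59 ± 0.15). Cebpd, an enhancer-binding protein, went from 36 to 20.3 CPM, while Foxp1 and Klf5 were not called (-0.14 ± 0.08 and -0.27 ± 0.13). Of 20 tested xenobiotic metabolism genes 7 were lower and 1 higher (2 higher without replicate 3 of siPdcd5), and 12 were not called (median -0.18). The gene that rose was Ahr, the dioxin receptor that switches such enzymes on, at 36.8, 37.6 and 39.7 CPM against 81.5, 66.5 and 69.1 CPM (0.93 ± 0.11). Aldh1a1 fell from 305 to 160.2 CPM on average.

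The antioxidant list, of which NRF2 is the master regulator, showed no common direction, with 5 of 37 tested members higher and 5 lower, and leaving out any 1 of the 6 libraries left 2 or 3 higher. Nfe2l2, which encodes NRF2, stood at 189, 227 and 225 CPM without and 133, 136 and 134 CPM with TGF-β1 (-0.67 ± 0.11). The glutathione transferases Gstm1 and Gsta4 fell from 339 to 128 and from 42.8 to 13.2 CPM, and Nqo1, a classic NRF2 target, was not called (-0.09 ± 0.17). Members of both transferase families are close in sequence, and the authors counted multiple alignments, so reads may be shared among paralogs. Sod3, the secreted superoxide dismutase, was higher, at 68.6, 68 and 71 against 128, 123 and 122 CPM (0.85 ± 0.08).

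Most tested genes of the ATF4 amino acid response rose. ATF4 is a transcription factor made when amino acids or endoplasmic reticulum folding run short, and its targets import and synthesise amino acids. Of 36 tested genes of the list 25 were higher and none lower (median 0.92), and 24 or 25 were higher under each of the 14 alternatives. Atf4 stood at 408, 648 and 619 CPM without and 1045, 1156 and 1068 CPM with TGF-β1 (log2 fold change 0.96 ± 0.19, edgeR adjusted p = 0.00274), and Atf5 went from 109 to 229 CPM (1.06 ± 0.23). Trib3, a pseudokinase that feeds back on ATF4, stood at 11, 9.81 and 11.6 against 49.9, 51.8 and 46.6 CPM (2.19 ± 0.10), and Nupr1, a stress-induced chromatin protein, at 86.7, 92.1 and 96.6 against 411, 438 and 411 CPM (2.19 ± 0.10). Slc7a11, the cystine importer, lay at 2.21, 0.992 and 1.29 against 9.06, 5.71 and 7.26 CPM (2.32 ± 0.30), and the stress hormone Gdf15 at 2.51, 5.35 and 5.92 against 15.3, 15.2 and 14.6 CPM (1.69 ± 0.31). Fgf21, another stress hormone, had 3, 2 and 1 counts without and 28, 11 and 30 with TGF-β1, and Cebpb was not called (-0.17 ± 0.19). In Atf4 and Atf5 the first siPdcd5 library was the lowest, and each treated library was above all untreated ones.

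ATF4 and its partners bind the C/EBP-ATF response element, TGATGNAA, which was searched on both strands of the 250 bases before the RefSeq start, a motif added after the values were seen. It was in 9 of 30 promoters of tested list members that the RefSeq table holds, in 2.01% of the promoters of all tested genes and in 3.53% of all 27025 promoters in the table. Of the 20 such promoters of members called higher 7 held it, and that of Trib3, among the 4 largest rises, had no match. Since the list was drawn up from known ATF4 targets, these shares describe the list. The promoters of 3 of its 4 largest rises are shown because they carry the element, in capitals, with Slc7a11 holding it at 2 places on opposite strands (GRCm38.p6; Slc7a11 chr3:50443614-50443863, Nupr1 chr7:126625471-126625720 and Fgf21 chr7:45615491-45615740, all minus strand).

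Slc7a11: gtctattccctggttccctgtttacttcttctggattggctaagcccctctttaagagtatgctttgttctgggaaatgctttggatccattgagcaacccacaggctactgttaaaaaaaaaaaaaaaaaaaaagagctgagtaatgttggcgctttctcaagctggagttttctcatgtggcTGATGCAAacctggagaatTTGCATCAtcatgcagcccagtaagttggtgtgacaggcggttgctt

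Nupr1: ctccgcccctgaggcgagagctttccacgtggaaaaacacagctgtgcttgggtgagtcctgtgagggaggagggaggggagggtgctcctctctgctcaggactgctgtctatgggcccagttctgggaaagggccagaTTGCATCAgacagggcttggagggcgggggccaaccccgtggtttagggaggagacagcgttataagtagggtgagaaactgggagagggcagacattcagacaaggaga

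Fgf21: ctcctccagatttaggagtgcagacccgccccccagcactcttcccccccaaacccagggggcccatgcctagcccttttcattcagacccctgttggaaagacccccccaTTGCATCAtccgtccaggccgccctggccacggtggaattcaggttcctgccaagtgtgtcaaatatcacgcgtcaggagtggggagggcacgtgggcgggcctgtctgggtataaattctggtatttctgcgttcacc

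A match is a run of letters and not a measured binding site. Over all called genes, the motifs CAGACA and GGCGCC (SMAD), TGANTCA (AP-1), CACCTG (ZEB and SNAI), GGAATG (TEAD) and the CArG box (SRF) had shares near those of tested genes: CAGACA was in 14.5% of promoters of genes called higher, 12.5% of those called lower and 13% of those tested, and GGCGCC in 17.3%, 17.5% and 17%. TGANTCA was in 5.8%, 6.06% and 4.35%, the widest gap of the 5 spelled motifs relative to its share. Both strands were searched, none of the motifs contains another, and RefSeq had a promoter for 9935 of the 12425 tested genes.

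Genes of tRNA charging, protein folding and secretion rose in part. Of 20 tested cytosolic aminoacyl-tRNA synthetases, which charge tRNAs, 11 were higher and none lower (median 0.43), and Gars stood at 147, 156 and 163 CPM without and 302, 327 and 306 CPM with TGF-β1 (1.00 ± 0.08). Of 29 tested genes of the unfolded protein response 13 were higher and none lower, a count that was 7 without replicate 1 and 8 without replicate 3 of siPdcd5_TGFb1, and 8 without replicate 3 of siPdcd5. Hspa5, the chaperone BiP, went from 1438, 1535 and 1716 to 2549.7, 2603 and 2473 CPM (0.70 ± 0.10, edgeR adjusted p = 0.00014), and Dnajc3, its cochaperone, from 116 to 170.0 CPM. Of 34 tested COPII and transport genes 12 were higher and none lower, and Creb3l1, a transcription factor of collagen secretion, stood at 32.2, 30.8 and 35.5 against 94, 78.1 and 90.9 CPM (1.42 ± 0.11). Sec24d, a COPII coat subunit needed for collagen export, went from 30.2 to 50 CPM, while Sec23a and Sec24a were not called (0.45 ± 0.16 and -0.05 ± 0.25). Of 26 tested heat shock genes 9 were higher and 1 lower, Hspb1 at 72, 68.7 and 76.4 against 135, 128 and 126 CPM. The COPII count was 8 and the heat shock count 6 without replicate 1 of siPdcd5_TGFb1, and no heat shock gene was lower without replicate 1 of siPdcd5 or any 1 treated library.

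**Figure D4:**
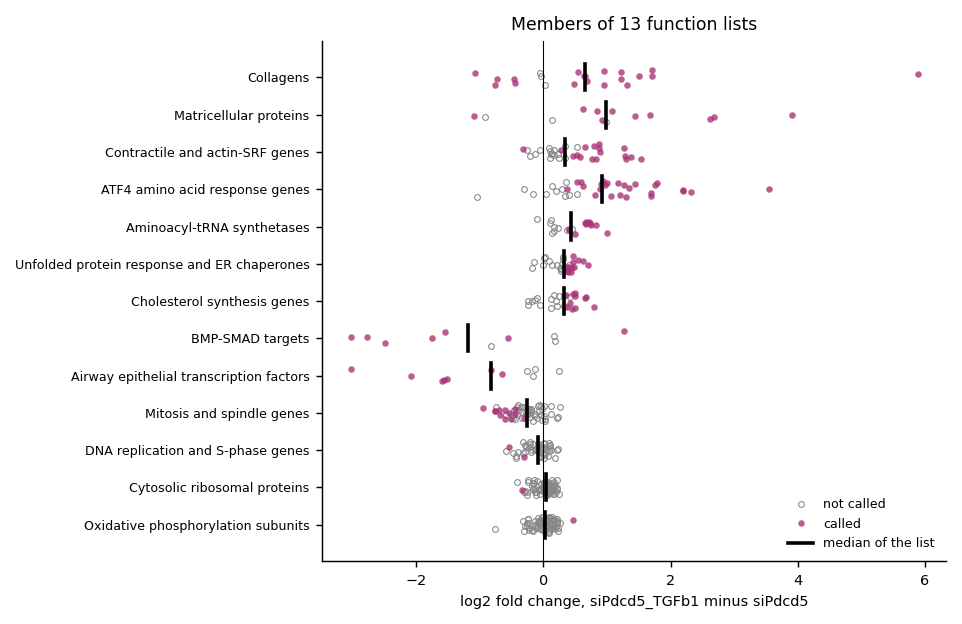
Log2 fold change (siPdcd5_TGFb1 minus siPdcd5) of every tested member of 13 function lists, filled where called and open where not, with a black bar at the median of the list. The ATF4 median is 0.92 and that of BMP-SMAD targets -1.18, while ribosomal protein and oxidative phosphorylation genes lie close to 0.

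The CCT chaperonin, to which PDCD5 binds, and the prefoldins that hand it substrates were examined as the closest partners of the knocked-down gene. Of 21 tested genes, Pdcd5 included, 3 were higher and none lower. That is 14.3% called, beside 16.1% of all tested genes called either way and 8.5% called higher. Cct6a stood at 155, 145 and 159 CPM without and 221, 201 and 206 CPM with TGF-β1 (0.45 ± 0.10), Cct3 at 203, 177 and 202 against 255, 261 and 248 CPM (0.39 ± 0.08), and Tcp1 at 203, 206 and 233 against 258, 275 and 260.3 CPM (0.31 ± 0.09, edgeR adjusted p = 0.0358). The call of Tcp1 was lost in 8 of 14 alternatives, 5 of which leave out 1 library (edgeR adjusted p = 0.0808 to 0.131), and Cct2 overlapped between groups (0.14 ± 0.15).

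Some genes of sterol and sugar metabolism rose. Of 26 tested cholesterol synthesis genes 11 were higher and none lower (median 0.33). Cyp51, a demethylase of the pathway, stood at 304, 276 and 314 CPM without and 460.1, 472 and 487 CPM with TGF-β1 (0.67 ± 0.09, edgeR adjusted p = 7.94e-05). Of 24 tested fatty acid genes 3 were higher and none lower, and Fasn, the synthase itself, was not called (0.34 ± 0.14). Of 35 tested glycolysis and hypoxia genes 11 were higher and 2 lower: Hk2, the inducible hexokinase, went from 35.9, 30.7 and 28.2 to 68.3, 67.5 and 68 CPM (1.10 ± 0.12), the lactate exporter Slc16a3 from 7.53, 11.8 and 8.56 to 26.7, 28.9 and 23.5 CPM (1.49 ± 0.22), and Hk1, the constitutive hexokinase, overlapped between the groups with no call. No glycolysis gene was lower without replicate 1 of siPdcd5_TGFb1. By contrast 1 of 74 tested oxidative phosphorylation subunits was higher and none lower.

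Most cell cycle genes that changed fell. Of 22 tested G1 cyclins, CDK inhibitors and Myc genes 6 were lower and 1 higher. Ccnd1, cyclin D1, which opens the G1 phase, stood at 1138, 962 and 964 CPM without and 453, 439.7 and 449 CPM with TGF-β1 (log2 fold change -1.19 ± 0.10, edgeR adjusted p = 1.67e-06), and Ccnd2 at 546, 610.1 and 622 against 409, 442 and 419 CPM (-0.49 ± 0.10). Cdkn2b, the p15 inhibitor that is a known TGF-β target, was the member that rose, at 32.3, 30 and 28 against 60.9, 44 and 61 CPM (0.88 ± 0.18), while the inhibitors Cdkn1b and Cdkn2c fell (-0.72 ± 0.13 and -0.87 ± 0.14). Of 58 tested mitosis and spindle genes 12 were lower and none higher (median -0.26). Nusap1, a spindle protein, stood at 50.6, 39.4 and 32.5 against 23.4, 25.5 and 23.4 CPM (-0.76 ± 0.18). The first siPdcd5 library held more of several of these transcripts than its replicates, with Cdk1 at 113, 49.9 and 56.9 CPM and Ccnb1 at 45.2, 26 and 25.9 CPM in the 3 libraries, and Cdk1 was not called. Without that library 7 mitosis genes were lower, as without replicate 2 of siPdcd5, and 6 were lower without replicate 1 or 2 of siPdcd5_TGFb1. Of 53 tested DNA replication genes 2 were lower and none higher, 3.77% beside 7.61% called lower over all tested genes. In this list no gene was lower without replicate 3 of siPdcd5_TGFb1. Cdt1, a licensing factor, stood at 129 against 104 CPM on average, and Mcm2 had a log2 fold change of 0.01 ± 0.09.

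Survival genes and p53 targets were mixed. Of 28 tested BCL2 family and caspase genes 6 were lower and 2 higher: Casp12 and Casp1, caspases of the inflammatory group, fell from 45.9 to 20.3 and from 51.9 to 28.2 CPM, Bcl2l1, which encodes the survival protein BCL-XL, stood at 140.2, 178 and 181 against 103, 117 and 106 CPM (-0.62 ± 0.16), and Bok, a pore-forming relative, rose (1.04 ± 0.15). Of 29 tested p53 targets 4 were higher and 4 lower. Gadd45a, a stress-response gene that ATF4 also controls, stood at 7.82, 8.16 and 6.7 against 32.5, 25.6 and 26.3 CPM (1.90 ± 0.18), Sesn1 stood at 10.4 against 5.56 CPM on average, and Trp53 itself overlapped between the groups (0.02 ± 0.21). The calls of Bcl2l1 and Sesn1 each rested on single libraries, 4 and 3 of the 6 when left out in turn giving an edgeR adjusted p of 0.0622 to 0.0777 and of 0.0563 to 0.0618, and without replicate 2 or 3 of siPdcd5_TGFb1 2 p53 targets were lower.

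Secreted signals to other cells changed in both directions. Of 26 tested chemokines and cytokines 11 were higher and 6 lower. Cxcl16, a membrane-bound chemokine, stood at 2.14, 2.81 and 1.93 CPM without and 14.1, 13.1 and 14.2 CPM with TGF-β1 (log2 fold change 2.57 ± 0.21, edgeR adjusted p = 7.88e-07), Cxcl10, an interferon-induced chemokine for lymphocytes, at 2.73, 2.54 and 2.96 against 14.2, 12.7 and 11.6 CPM (2.22 ± 0.19), and Ccl17 at 0.59, 0.441 and 0.322 against 2.75, 3.09 and 3.29 CPM. Cxcl15, a chemokine of mouse lung epithelium, had 14, 23 and 11 counts without and 2, 0 and 0 with TGF-β1, and Cxcl17, a mucosal chemokine, fell from 3.44 to 0.833 CPM. Of 50 tested interferon response genes 7 were higher and 4 lower, with Ifi44 higher (1.40 ± 0.19) and Isg20 lower (-0.96 ± 0.13). Of 31 tested growth factor and receptor genes 7 were higher and 6 lower, with 3 lower without replicate 2 of siPdcd5_TGFb1. Vegfc and Pdgfc, a lymphatic and a mesenchymal growth factor, rose from 5.19 to 20.9 and from 40 to 92.9 CPM, and Met, the hepatocyte growth factor receptor, stood at 400.0, 418 and 426 against 178, 189 and 183 CPM (-1.18 ± 0.08). Of 13 tested IGF genes 2 were higher and 2 lower. Igf1, insulin-like growth factor 1, lay at 1.11, 1.65 and 0.708 CPM without and 26, 23.8 and 25.4 CPM with TGF-β1 (4.40 ± 0.21), whereas its binding protein gene Igfbp6 fell from 168 to 62.8 CPM.

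Other signalling pathways had called members in both directions, beside the 16.1% of all tested genes. Of 32 tested Wnt genes 3 were higher and 3 lower, with 1 higher without replicate 3 of siPdcd5 or without replicate 1 or 2 of siPdcd5_TGFb1. Wnt9a went from 13.6 to 39 CPM and Wnt4 went from 50.3 to 21.9 CPM, and Ctnnb1, β-catenin, had a log2 fold change of 0.14 ± 0.11 with no call. Of 18 tested Notch genes 2 were lower, and 1 was higher without replicate 3 of siPdcd5, with the receptor Notch1 at 73.8, 74.8 and 69.7 against 30.1, 28.5 and 30.9 CPM (-1.29 ± 0.09). Of 32 tested YAP and TEAD genes 8 were higher and 2 lower, while Yap1, Wwtr1 and Tead1, the coactivators and their DNA-binding partner, were not called. Among 33 tested AP-1 and early response factors 9 were higher and 2 lower: Runx1 stood at 24.5, 37.6 and 28.1 against 89.3, 96.4 and 90.1 CPM (1.61 ± 0.15) and Junb, an AP-1 subunit, at 86.1, 83.7 and 83.1 against 185, 172 and 163 CPM (1.04 ± 0.09), and Fos was not called, with 1 lower when any 1 library other than replicate 1 of siPdcd5 was left out. Among 16 dual-specificity phosphatases, Sproutys and ETV factors of MAP kinase signalling 2 were higher and 2 lower, with Dusp1 lower (-1.07 ± 0.18) and Dusp14 higher (0.89 ± 0.11). The call of Dusp6 (-0.74 ± 0.21) was lost in 4 alternatives, without replicate 1 of siPdcd5 or any 1 treated library, and 1 gene of the list was lower without replicate 1 of siPdcd5 or replicate 1 or 3 of siPdcd5_TGFb1. Of 32 tested axon guidance genes 2 were higher and 7 lower, with 1 higher without replicate 1 of siPdcd5 or replicate 1 or 3 of siPdcd5_TGFb1. Ephb3, an ephrin receptor (0.55 ± 0.17), lost its call in 6 of 14 alternatives, 5 of which leave out 1 library. Of 21 tested S100 and annexin genes 2 were higher and 3 lower. Of 18 tested antigen presentation genes 3 were higher and none lower, but none was higher without replicate 3 of siPdcd5 and 1 without replicate 2 of siPdcd5 or replicate 1 or 3 of siPdcd5_TGFb1.

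Ribosomal protein, splicing and proteasome genes had few called members. Of 77 tested ribosomal protein genes 1 was lower and none higher, of 50 splicing factors 1 was higher and 1 lower, and of 31 proteasome subunits 4 were higher and none lower. These shares lie under the 16.1% of all tested genes, although 28 of the 31 proteasome genes had a positive log2 fold change, and none of them was called without replicate 1, 2 or 3 of siPdcd5_TGFb1, and 1 without replicate 2 of siPdcd5. Of 45 tested ribosome biogenesis genes 8 were higher and none lower, a count that was 3 to 5 when any 1 of the 6 libraries was left out and 12 by DESeq2, with Tsr1 at 56.5, 46.3 and 54 CPM without and 84.8, 75.9 and 82.5 CPM with TGF-β1. Of 46 tested lysosome and autophagy genes 6 were lower and 1 higher, and 3 were lower without replicate 3 of siPdcd5 or any 1 treated library. Gabarapl1, an autophagosome protein, went from 408 to 233 CPM (-0.81 ± 0.14). Of 18 tested long noncoding and snoRNA host RNAs 1 was higher and 2 lower. The nuclear RNA Neat1 stood at 3364, 2779.8 and 3107 against 1571, 1857 and 1902 CPM (-0.80 ± 0.12), and Malat1, also nuclear, overlapped between the groups (-0.29 ± 0.13). In this list 1 RNA was lower without replicate 2 or 3 of siPdcd5 or replicate 1 or 3 of siPdcd5_TGFb1, and no ribosomal protein gene was called without replicate 1 of siPdcd5 or replicate 2 or 3 of siPdcd5_TGFb1.

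Whether the response was particular to siPdcd5 cells was tested as the difference between the 2 TGF-β1 responses in the same model. By edgeR's test 0 of 12425 genes (0%) passed an adjusted p of 0.05, the smallest adjusted p was 0.213, 638 genes (5.13%) had an unadjusted p under 0.05, and DESeq2's Wald test called 15. The 2 responses share no library, and 1950 of the 2002 genes called in siPdcd5 cells had the same sign in NC cells. The share of all tested genes with the same sign in both was not counted. In NC cells 1906 genes were called, 1316 of them also in siPdcd5 cells, and 686 were called in siPdcd5 cells only. Of these 686 genes, 140 had an unadjusted p under 0.05 in edgeR's test of the difference. Lxn, a carboxypeptidase inhibitor, ranked first for this difference and stood at 89.7, 84.1 and 87.6 CPM without and 57.6, 54.7 and 53.5 CPM with TGF-β1 in siPdcd5 cells, and at 186, 186 and 177 against 62.9, 74.7 and 66.6 CPM in NC cells (difference of log2 fold changes 0.77 ± 0.12, edgeR adjusted p = 0.213). Igf1 rose by 4.40 in siPdcd5 and 2.93 in NC cells, from an untreated level that was lower in siPdcd5 cells (1.11, 1.65 and 0.708 against 5.93, 7.86 and 8.44 CPM). Vegfc showed the same arrangement, with 10.1, 10.9 and 10.2 CPM in untreated NC cells and nearly equal treated levels (20.1, 20.1 and 22.5 and 22.6, 19.6 and 17.7 CPM), and its difference was 1.07 ± 0.20 (edgeR adjusted p = 0.346). Id2 fell by 3.03 in siPdcd5 and 4.18 in NC cells on the log2 scale, its untreated level being 137, 124 and 133 CPM in NC cells. In each of these 4 genes the untreated siPdcd5 libraries lay below the untreated NC ones without overlap. That level is itself part of the difference by which the genes were picked, and the share over all tested genes was not counted. None of the differences in response passed the adjusted threshold in edgeR, and all 4 are among the 15 that DESeq2's Wald test called. The adjusted p of that Wald test was 3.99e-06 for Lxn, 0.000505 for Igf1, 0.00374 for Vegfc and 0.00374 for Id2.

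**Figure D5:**
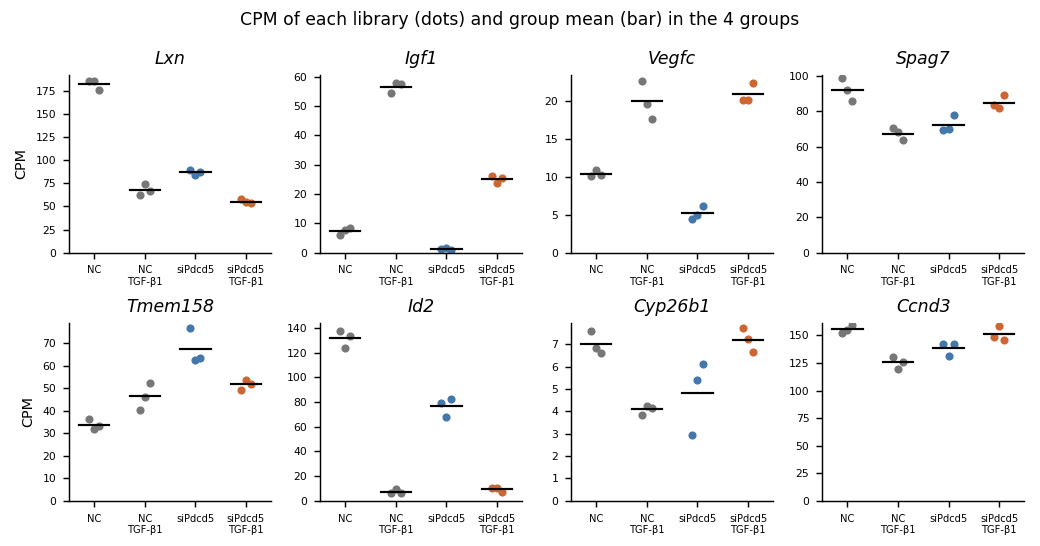
CPM in each library (dots, 3 per group) with group means (bars) for 8 genes in NC, NC with TGF-β1, siPdcd5 and siPdcd5 with TGF-β1, with axes from 0. Lxn goes from 87.1 to 55.3 CPM in siPdcd5 cells. The group means of Spag7, Tmem158, Cyp26b1 and Ccnd3 differ in opposite directions in the 2 backgrounds. None of these differences in response passed the adjusted threshold in edgeR, while DESeq2's Wald test called all 8.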

How the data were processed

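RNA from the cells was made into Lexogen QuantSeq libraries, which read the 3′ end of mRNA. Per the labels and the study's methods, the authors aligned reads with Bowtie2 to mm10 and deposited raw read counts per gene symbol, taken with Bedtools coverage from unique and multiple alignments. Near-identical genes can therefore share reads, and annotation and the use of strand are not given in the sources used here. The authors' own quantile normalisation is not in the deposited counts.

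All 12 libraries entered 1 model of 4 groups in edgeR 4.0.16 (R 4.3.3): TMM scaling, the default expression filter, quasi-likelihood tests with Benjamini-Hochberg adjustment at 0.05, and a prior count of 2 for log2 values. Values after ± are approximate standard errors, the absolute log2 fold change divided by the square root of the quasi-likelihood F statistic. The script was tested on simulated data. Alternatives were other scalings (limma 3.58.1 after quantile normalisation among them), filters, libraries and a replicate block, DESeq2 1.42.0 and leaving out each of the 6 siPdcd5 and siPdcd5_TGFb1 libraries in turn; no NC library was left out. Symbols on more than 1 row (35) kept each row as its own feature.

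The members and the lists were chosen with earlier results of these data known. Named genes were Pdcd5, the 12 largest rises and 12 largest falls at a mean log2 CPM of at least 3, for each list the 3 largest called changes each way and its first 3 tested genes, all members of lists with 12 or fewer, the 5 smallest interaction p-values and the club cell markers. Mmp14, genes from other marker lists and those in the closing section were named outside this rule, after their values were seen. Some genes under this rule, and 1 list, are not reported here. Same-numbered libraries did not deviate together (r of 0.03, 0.03 and -0.06), so the numbers were not used as pairs.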

Additional observations from a re-analysis of the deposited data

Results flagged for a closer look

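For 4 named genes the treated libraries lay wholly on one side of the untreated ones in siPdcd5 cells. In NC cells the treated libraries of these genes lay wholly on the other side. Only the named genes were searched, so the share of all 12425 tested genes with this arrangement was not counted. In siPdcd5 cells alone, 36.1% of all tested genes had no overlap between treated and untreated libraries. Spag7 and Tmem158 were named for a small p of the difference between the responses, which is the difference given here. Cyp26b1, a retinoic acid hydroxylase, had a log2 fold change of 0.57 in siPdcd5 and -0.78 in NC cells (difference 1.35, edgeR adjusted p = 0.736). Ccnd3, cyclin D3, had 0.12 against -0.31 (difference 0.43, edgeR adjusted p = 0.736). Spag7 had 0.23 against -0.45 (difference 0.68, edgeR adjusted p = 0.346). Tmem158 went the other way, with -0.38 in siPdcd5 and 0.45 in NC cells (difference -0.84, edgeR adjusted p = 0.346). In siPdcd5 cells Cyp26b1, Ccnd3 and Spag7 were not called, and the call of Tmem158 was lost in 5 of 14 alternatives. None of the 4 differences passed edgeR's threshold, and all 4 are among the 15 that DESeq2's Wald test called, with adjusted p of 0.0496, 0.0264, 0.00141 and 0.00542 in the order given.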

How the results depend on the processing

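Under the 14 alternatives, between 1371 and 2369 genes were called, and none of the 2002 changed sign. Leaving out 1 of the 6 siPdcd5 and siPdcd5_TGFb1 libraries gave 1371 to 1737 genes, 746 to 937 higher and 625 to 800 lower; the 625, without replicate 1 of siPdcd5_TGFb1, was the lowest. Fewer libraries entered these fits. Upper-quartile scaling turned the split to 939 higher and 1072 lower, the cause of which was not tested. Same-numbered libraries did not deviate together, and a fit with the replicate block called 1731 genes (1712 shared with the fit without it; 918 higher, 813 lower). For the difference between siPdcd5 and NC responses edgeR, and limma after quantile normalisation, called 0 genes under each alternative that could be run, with 477 to 828 genes at an unadjusted p under 0.05, and DESeq2 called 15; the cause was not tested. The fit of the 6 siPdcd5 libraries alone cannot give that difference. Of 255 named genes called, 197 stayed called under every alternative that gave them an adjusted p and 0 changed sign. Genes under a few CPM rest on few counts, and a change there is not resolved as well as in abundant genes.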

Other observations

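Genes outside the lists, picked after their values were seen, also changed strongly. Saa3, an acute-phase serum amyloid protein, stood at 0.369, 0.276 and 0.451 CPM without and 25.6, 28.7 and 24.3 CPM with TGF-β1 in siPdcd5 cells (log2 fold change 6.15 ± 0.28, edgeR adjusted p = 6.1e-09). Il1rl1, the receptor of interleukin-33, stood at 1.7, 1.98 and 2.45 against 21.2, 20.8 and 21.2 CPM (3.36 ± 0.22). Both were low without TGF-β1, and each treated library lay far above all untreated ones. C3, the central complement component, rose by 2.33 on the log2 scale, Ptgs2, the inducible cyclooxygenase, by 1.62, and Slpi, an airway antiprotease, by 1.41, while Cfb, complement factor B, had a log2 fold change of -0.05 ± 0.25 with no call. Edn1, endothelin-1, a vasoconstrictor peptide, stood at 8.49, 9.76 and 7.02 against 33.6, 29.2 and 30.9 CPM (1.89 ± 0.14).

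Other genes outside the lists fell. The metallothionein Mt1, which binds zinc, stood at 4001, 3987 and 4723 CPM without and 1582, 1801 and 1639 CPM with TGF-β1 (log2 fold change -1.34 ± 0.11, edgeR adjusted p = 7.89e-07), and Mt2 at 1769, 1700.5 and 1889 against 644, 676 and 669 CPM (-1.43 ± 0.08). Reads may be shared between these similar genes. Glul, glutamine synthetase, stood at 245, 195 and 230.3 against 60.1, 60.7 and 58.2 CPM (-1.90 ± 0.10), so its treated libraries lay well under each untreated one. Maoa, monoamine oxidase A, had a log2 fold change of -1.61 ± 0.09 and Esr1, the estrogen receptor, of -1.43 ± 0.29.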
